A study of Mus musculus with 8 samples.

Results

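Olfactory receptor genes carry the symbol Olfr in mice and form the largest family of G protein-coupled receptors. The members described here are the Olfr probes that stood above background in mouse paw skin. They were selected on measured flags. A probe was taken when the scanner software had marked it as well above background in the red and in the green channel on all 8 arrays, and for a probe printed on several spots on at least 50% of them. The rule kept 58 of 1204 Olfr probes. These 58 probes belong to 57 of 1094 Olfr genes, since Olfr456 had 2 of them. Over the whole array, 20286 of 39429 probes met the same rule.

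The study injected PACAP, a neuropeptide, or vehicle into the skin of the forepaw and collected the skin after 30 or 60 min. The mice were C57BL/6J males aged 9 to 10 weeks, either wild type (WT) or lacking the PACAP receptor PAC1R (Adcyap1r1 -/-, called PAC1R KO). The injection was 5 µL of PACAP at 1e-07 mol/L in saline with bovine serum albumin, or of this solution without PACAP. Whether PACAP and vehicle went to different mice is not stated in the sources used here. The 4 comparisons of PACAP with vehicle were WT at 30 min, WT at 60 min, PAC1R KO at 30 min and PAC1R KO at 60 min. In each comparison 1 PACAP RNA and 1 vehicle RNA were hybridised together on 2 arrays with the dyes Cy3 (green) and Cy5 (red) swapped. The 2 arrays of a swap measured the same RNA, so each comparison was 1 replicate. Which animals entered an RNA sample, and whether animals were pooled, is not stated in the sources used here, although the skin samples were ground one by one, and the p-values below measure only the spread between these samples. All WT arrays lay on one slide and all KO arrays on another, and for this reason a genotype cannot be told apart from its slide. Between 78.6% and 94.5% of probes per array were well above background in red and between 54.0% and 65.3% in green, with the lowest mean shares in WT at 30 min (81.6% and 56.1%) and the highest in KO at 60 min (92.5% and 64.0%).

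In the nose, each olfactory sensory neuron expresses one olfactory receptor. An odorant bound to the receptor activates the G protein Golf, whose alpha subunit is Gnal, and then the adenylyl cyclase Adcy3 and a cyclic nucleotide-gated channel built from Cnga2, Cnga4 and Cngb1. Some receptors have been described in other organs, among them Olfr78 in the carotid body, Olfr558 in blood vessels, Olfr16 in sperm and Olfr544 in liver and fat. For most other members no ligand is stated here.

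The probes themselves are shown first, because their bases and their position decide what a signal can be read as. All are 60 bases long, printed 5′ to 3′, and the positions are those of the files (mm9). The first 4 sequences are the neighbouring probes of the genes Olfr1115 and Olfr1564, of which one met the rule and the other had no flag in any channel. In these and in the next set, capitals mark the longest unbroken run of C and T, the first of them where several are equally long.
Olfr1115: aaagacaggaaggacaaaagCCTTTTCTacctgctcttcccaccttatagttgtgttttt
Olfr1115 second probe: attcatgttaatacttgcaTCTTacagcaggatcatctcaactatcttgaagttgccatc
Olfr1564: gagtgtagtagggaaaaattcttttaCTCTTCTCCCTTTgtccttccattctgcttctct
Olfr1564 second probe: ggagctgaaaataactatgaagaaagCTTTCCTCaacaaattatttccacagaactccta

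The next 5 are the brightest member, Olfr700, and the 4 members that were higher with PACAP on every array.
Olfr700: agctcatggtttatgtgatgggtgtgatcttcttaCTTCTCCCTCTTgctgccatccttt
Olfr661: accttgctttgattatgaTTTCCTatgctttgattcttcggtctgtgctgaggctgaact
Olfr266: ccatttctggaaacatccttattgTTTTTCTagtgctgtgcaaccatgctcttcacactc
Olfr1198: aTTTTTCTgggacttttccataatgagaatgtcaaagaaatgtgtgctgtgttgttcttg
Olfr432: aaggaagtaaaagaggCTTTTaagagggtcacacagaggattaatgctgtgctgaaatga

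In the last 3, capitals mark the longest stretch that another probe of the array holds letter for letter, which is a probe of Olfr536 for Olfr530, of Olfr470 for Olfr469 and of Gm10228 for Olfr1134.
Olfr530: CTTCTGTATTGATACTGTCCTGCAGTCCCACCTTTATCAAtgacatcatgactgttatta
Olfr469: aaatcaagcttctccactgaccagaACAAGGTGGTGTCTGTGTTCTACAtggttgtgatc
Olfr1134: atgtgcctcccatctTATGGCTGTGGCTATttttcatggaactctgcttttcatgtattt

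Most Olfr probes did not stand above background throughout: 788 of the 1204 met the threshold on all 8 arrays in neither channel and 358 in one channel only. In red, 415 of the 1204 were well above background on all 8 arrays, and in green 59 were. Green was the channel that set the membership: 171 probes were above background in red on all 8 arrays and in green on none. No flag in any channel on any array was found for 119 probes. The share that met the rule was 4.82% for Olfr probes. It was 6.35% (23 of 362) for probes of the other chemoreceptor families, namely 14 of 186 for the vomeronasal type 1 receptors, 5 of 124 for type 2, 1 of 15 for the trace amine-associated and 3 of 37 for the bitter taste receptors. Over all probes it was 51.4%.

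**Figure D1:**
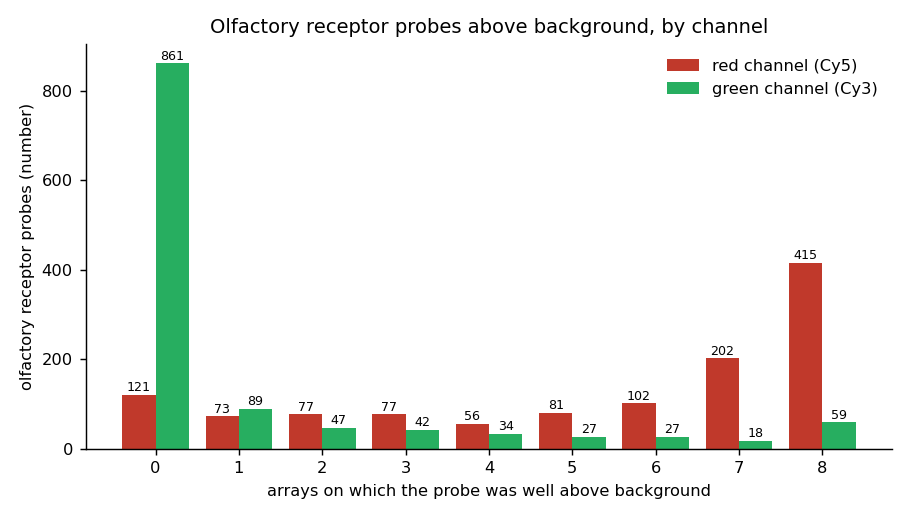
Number of Olfr probes (vertical axis) by the number of arrays on which they were well above background (horizontal axis, 0 to 8), in the red and in the green channel. In green 861 probes were at 0 arrays and 59 at 8, whereas in red 121 were at 0 and 415 at 8.

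The threshold cut through a continuous range. Just inside it, the lowest mean log2 levels were those of Olfr530 (6.54), Olfr1307 (6.66) and Olfr1443 (6.73). Just outside it were 18 Olfr probes that lacked the flag in 1 channel of 1 array, with mean log2 levels from 6.42 to 7.34, and the highest of these were Olfr1350 (7.34), Olfr538 (7.27) and Olfr1428 (7.13). The level of an RNA is the log2 signal after background correction, with an offset that compresses differences between dim probes, averaged over its red and its green reading. A level of one probe does not measure transcript amount against another probe.

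Different probes of the same gene often did not give the same result. For 7 member genes the array held 2 probes, and in 1 of the 7, Olfr456, both met the rule. The Olfr456 probes overlap on chromosome 6 (42436847 to 42436906 and 42436887 to 42436946). The member probe of Olfr1115 (chr2:87092830-87092889, plus strand) had both flags on all 8 arrays, while the probe directly before it (chr2:87092770-87092829) had 0 in red and 0 in green. For Olfr1564 (chr17:33352260-33352319, minus strand) the same held, and its second probe at chr17:33352341-33352400 had 0 and 0. The second probes of Olfr1033, Olfr373, Olfr46 and Olfr629 were above background in red on 8, 7, 7 and 6 arrays and in green on 0. The second probe of Olfr373 overlaps its member probe on chromosome 8 (74624539 to 74624598 against 74624499 to 74624558).

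Member probes were richer in C and T than the other Olfr probes. A member held a median of 22 T, 14 C, 12.5 A and 11 G, against 17 T, 11.5 C, 19 A and 12 G in the 1146 other Olfr probes. More than 30 of the 60 bases were C or T in 51 of 58 members (87.9%) and in 525 of 1146 others (45.8%). The share of Olfr probes that met the rule was 0.867% (3 of 346) with 24 or fewer such bases, 1.98% (4 of 202) with 25 to 28, 2.89% (5 of 173) with 29 to 32, 7.66% (18 of 235) with 33 to 36 and 11.3% (28 of 248) with 37 or more. Over all probes of the array the same bins gave 42.9%, 49.2%, 53.4%, 55.1% and 58.4%. In red alone, the Olfr share was high at both ends, at 39.9% in the first bin and 45.6% in the last, and 19.8% in the second. In the pair from Olfr1115 the member held 34 such bases and its neighbour without a flag 35.

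**Figure D2:**
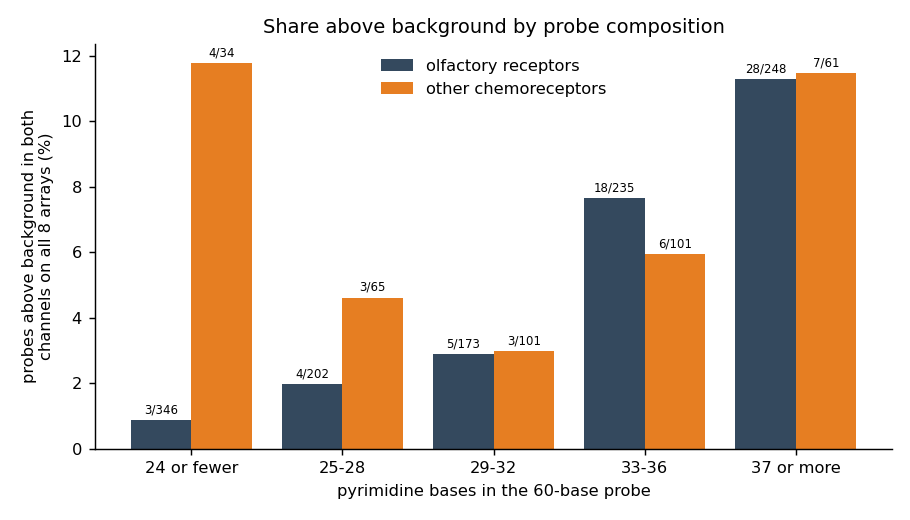
Share of probes above background in both channels on all 8 arrays (vertical axis, %) by the number of pyrimidine bases, C or T, in the probe (horizontal axis), for Olfr probes and for the other chemoreceptor families. The Olfr share was 0.867% in the first bin and 11.3% in the last, and the other families, with 34 to 101 probes a bin, had 11.8% in the first and 11.5% in the last.

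Few members shared long stretches with other probes of the array. They were compared with these probes only, so matches elsewhere in the genome or in transcripts were not looked for. Among the 58, 30 held at least 12 consecutive bases of a probe of another Olfr gene, and 2 held more than 20, Olfr530 with 40 bases of Olfr536 and Olfr469 with 24 of Olfr470. With probes outside the Olfr family the longest shared run was between 12 and 16 bases for every member. By position, 19 members lay on chromosome 7, 15 on chromosome 2 and 5 on chromosome 17. The array held 261, 307 and 52 Olfr probes on these chromosomes, and both of its Olfr probes on chromosome 3 were members. Of the 57 member symbols, all 57 were found in RefSeq (GRCm38.p6), 56 as protein-coding genes and 1, Olfr1372-ps1, as a transcribed pseudogene.

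The genes that work with olfactory receptors in neurons were in part above background. Of 11 olfactory sensory neuron genes, 5 met the rule: the marker protein Omp, Adcy3, the channel subunit Cngb1, the chloride channel Ano2 and the calcium-binding S100a5. Gnal had the red flag on 8 arrays and the green flag on 0, Cnga2 on 8 and 1, and Cnga4 on 0 and 0. Of 8 genes for receptor trafficking and choice, 5 met it (Reep1, Lhx2, Ebf1, Ldb1 and Kdm1a), while Rtp1, a chaperone of these receptors, had 4 and 0 and Rtp2 8 and 5. Each listed gene was read by its brightest probe. Of all probes, counted singly, 51.4% met the rule, so this share is not like for like with the gene counts. In the fits described below, 0 of the genes tested on each of these lists were called for PACAP. The markers of the labelled tissue were present: all 9 skin genes, such as Krt5, Krt14 and Col1a1, met the rule, with a median log2 level between 15.03 and 15.64 in every sample. All 6 skeletal muscle genes and all 8 hair shaft genes met it too.

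Among the 7 receptors listed as described outside the nose, 2 were members. Olfr544 read 9.09, 8.93, 8.73 and 8.91 (log2 level) in the vehicle samples of WT 30 min, WT 60 min, KO 30 min and KO 60 min and 8.99, 8.97, 8.79 and 8.87 in the PACAP samples. It varied little, with an SD of 0.11 over 8 samples. Olfr558 read 7.72, 7.64, 7.73 and 7.63 with vehicle and 7.83, 7.73, 7.55 and 7.55 with PACAP. The PACAP samples of Olfr558 were higher than vehicle in WT and lower in KO, with fold changes of 1.08, 1.08, 0.820 and 0.884. In limma the KO minus WT difference was -0.35 ± 0.19 (log2, SE, n = 2 comparisons per genotype), with an adjusted p of 0.839. Of the other 5, Olfr78 had the red flag on 8 arrays and the green flag on 0, Olfr16 on 7 and 0, Olfr1393 on 8 and 4, Olfr2 on 5 and 0 and Olfr734 on 0 and 0.

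The brightest member was Olfr700, at log2 levels between 15.2 and 15.6 in the 8 samples (SD 0.12). Its nearest member on the chromosome was Olfr704, whose probe lies 59.7 kb away and shares 13 bases with it, and which had a mean level of 7.29. The other members with the highest levels were Olfr187 (mean 10.7), Olfr1410 (10.6), Olfr1402 (10.0), Olfr18 (9.70), Olfr1466 (9.22), Olfr544, Olfr1134 (8.86), Olfr1033 (8.85), Olfr1229 (8.84), Olfr469 (8.66) and Olfr780 (8.44). Most members were dim, and 41 of 58 had a mean level under 8. The SD over the 8 samples had a median of 0.28 over members, from 0.05 for Olfr1368 to 1.06 for Olfr1134.

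Levels were higher in KO than in WT samples for many members. Olfr1466 read 8.55, 8.77, 8.95 and 9.06 in the WT samples and 9.62, 9.50, 9.60 and 9.70 in the KO samples, so that the genotypes did not overlap. Olfr482 read 6.97, 6.97, 7.61 and 7.57 in WT (30 min vehicle and PACAP, then 60 min) and 7.40, 7.54, 8.10 and 8.06 in KO, where the genotypes overlapped across times but not within a time. In limma, the KO minus WT differences were 0.77 ± 0.08 for Olfr1466 (log2, SE, n = 4 samples per genotype, adjusted p = 0.0156) and 0.49 ± 0.04 for Olfr482 (adjusted p = 0.0150). In all, 20 of 58 members were higher in KO at an adjusted p below 0.05 and 0 were lower, and 5.2% of all probes tested were higher. With the processed signal scaled to the 75th percentile the count was 32, with 13.4% of all probes higher and 3.03% lower, against 5.08% lower in the fit described. The fit described treated the PACAP and vehicle RNA of a comparison as independent samples, although both were read on the same 2 arrays. With the comparison as a random block, 16 members were higher and 0 lower, and 2.19% of all probes were higher and 2.17% lower. The others of the 20 were Olfr96, Olfr1143, Olfr319, Olfr704, Olfr1280, Olfr74, Olfr1252, Olfr549, Olfr1122, Olfr1131, Olfr738, Olfr524, Olfr577, Olfr635, Olfr97, Olfr786, Olfr1564 and a probe of Olfr456. Among the 358 other Olfr probes tested 60 were higher and 0 lower, and at the 75th percentile 159 were higher. Of all probes that met the rule with a mean level under 8 and at least 33 C or T bases, a set chosen after the values were seen, 15.8% (324 of 2050) were higher and 112 were lower. The genotype difference is also a slide difference, the shares of probes above background differed the same way, and their part in it was not tested. With the vehicle samples alone, and without WT 30 min, WT 60 min or KO 60 min, limma called 0 members and 0 of all probes, while between 21 and 41 members and between 14.3% and 27.8% of all probes had an unadjusted p below 0.05.

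Time gave a similar picture. Olfr635 read 6.62, 6.56, 6.81 and 6.93 in the samples at 30 min (WT vehicle, WT PACAP, KO vehicle, KO PACAP) and 7.47, 7.36, 7.95 and 7.83 at 60 min, without overlap. The 60 minus 30 min difference was 0.92 ± 0.06 (log2, SE, n = 4 samples per time, limma adjusted p = 0.00485). For Olfr482 it was 0.61 ± 0.04 (adjusted p = 0.00485). Of 58 members, 12 were higher at 60 min at an adjusted p below 0.05, against 8.42% of all probes tested, and 1, Olfr1443, was lower, against 7.58% of all probes. With the processed signal scaled to the 75th percentile 14.7% of all probes were higher and 5.12% lower, and 18 members were called. With the comparison as a random block, 11 members were higher and 0 lower, so the call of Olfr1443 was lost. Of all probes, 5.71% were higher and 3.65% lower in that fit. The others that were higher were Olfr704, Olfr74, Olfr577, Olfr530, Olfr91, Olfr1008, Olfr97, Olfr1564, Olfr521 and a probe of Olfr456. Among the 358 other Olfr probes 86 were higher and 3 lower, and at the 75th percentile 166 were higher. Of the 2050 probes with a mean level under 8 and at least 33 C or T bases 17.9% (367) were higher and 168 were lower. The mean share of probes above background in green was also higher at 60 min, at 58.8% against 56.1% in WT and 64.0% against 60.9% in KO, and its part was not tested. With the vehicle samples alone, and without WT 30 min, WT 60 min or KO 60 min, limma called 0 members and 0 of all probes, while between 20 and 24 members and between 20.2% and 25.1% of all probes had an unadjusted p below 0.05. The count was 30 without KO 30 min, where the share of all probes called also rose, to 18.3% higher and 18.0% lower.

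**Figure D3:**
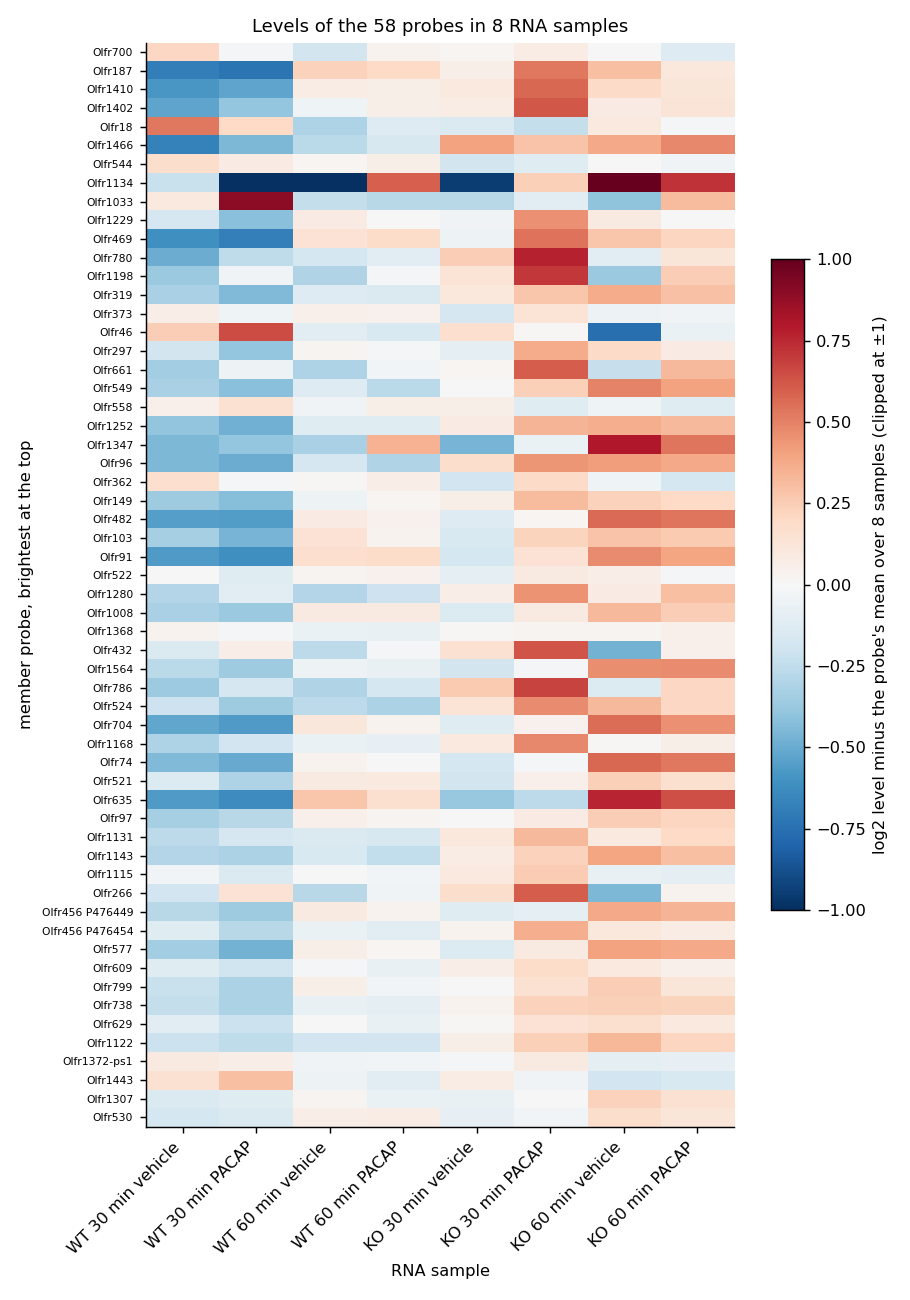
Log2 level of each of the 58 member probes (rows, brightest at the top) in the 8 RNA samples (columns), minus the probe's own mean over the 8 samples; red is above and blue below that mean, with colours clipped at 1. The lowest value lay in a WT 30 min sample for 42 of 58 members and the highest in a KO sample for 50, of which 24 were in the KO 30 min PACAP sample.

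PACAP over vehicle was compared by a counting rule: the mean of the swap had to be at least 2.0-fold or at most 0.5-fold, both arrays had to give that direction, and each needed a p from Feature Extraction under 0.01. In total 3 members passed it. They were Olfr1134 in all 4 comparisons, Olfr1347 in WT at 60 min and Olfr266 in KO at 60 min. With normexp and loess and no p filter, the calls of Olfr1134 in WT 30 min (0.525-fold), Olfr1347 (1.59-fold) and Olfr266 (1.40-fold) ended. The 6 calls were 1 member of 58 in WT at 30 min, 2 in WT at 60 min, 1 in the KO mice after 30 min and 2 after 60 min, while 0.35%, 0.692%, 0.708% and 0.292% of all probes passed. No Olfr probe outside the members passed in any comparison. The arrays of a comparison hold the same RNA, so these calls have no replicate of animals.

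Olfr1134 (chr2:87496298-87496357, minus strand) moved the most and changed direction between comparisons. Its log2 levels with vehicle were 8.64, 7.78, 7.92 and 10.7 in WT 30 min, WT 60 min, KO 30 min and KO 60 min, and with PACAP they were 7.71, 9.46, 9.10 and 9.58. PACAP over vehicle was 0.437- and 0.404-fold on the 2 arrays of WT 30 min, 4.86- and 3.60-fold in WT 60 min, 2.58- and 2.77-fold in KO 30 min and 0.450- and 0.426-fold in KO 60 min. Both arrays of each swap thus gave the same direction, down in WT 30 min and KO 60 min and up in the others.

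Probes of hair genes moved in a like order. The 6 probes of the array that hold the 15 capital bases of the Olfr1134 probe all met the background rule, and they belong to 5 names: Krtap20-2 (2 probes), Gm10228, Gm10061, 1110025L11Rik and the transcript ENSMUST00000089101. Krtap20-2 encodes a keratin-associated protein of the hair shaft, and in RefSeq (GRCm38.p6) Gm10228 lies between Krtap6-1 and Krtap6-5. Their PACAP over vehicle lay between 0.274- and 0.524-fold in WT 30 min, between 6.05- and 7.45-fold in WT 60 min, between 3.03- and 3.52-fold in KO 30 min and between 0.353- and 0.413-fold in KO 60 min. Another 11 probes shared shorter runs of 12 or 13 bases, and 6 of them met the rule. The median log2 ratio of these 11 was -0.005, -0.07, 0.22 and -0.11, while Gm35091 among them was at -1.69, 2.86, 1.85 and -1.52. The median log2 ratio of 54 Krtap probes above background was -0.25, 2.16, 1.65 and -0.61 in the same order, and that of the 8 hair shaft keratins was 0.28, 2.11, 1.59 and -0.48, above 0 in WT 30 min where Olfr1134 was below. These probes were chosen after the ratios of Olfr1134 were seen. The part of hair transcripts in the signal of the Olfr1134 probe was not tested.

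**Figure D4:**
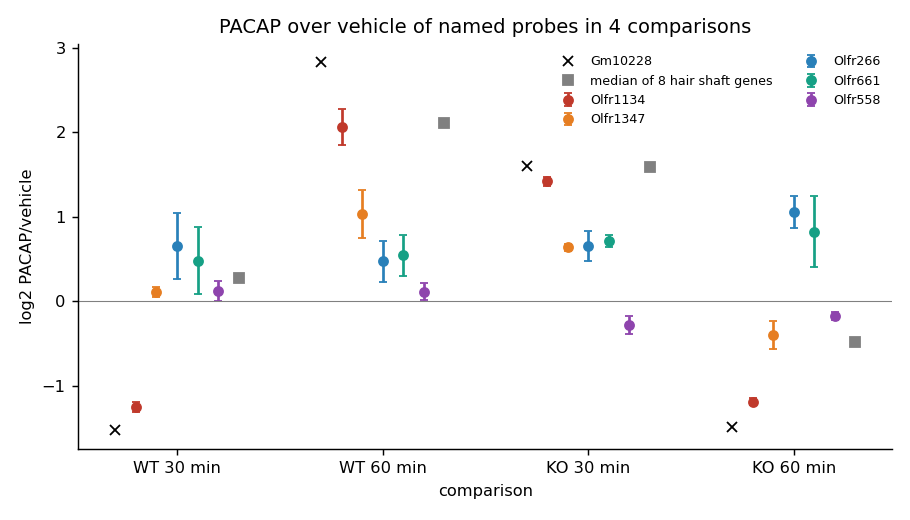
Log2 PACAP over vehicle (vertical axis) in the 4 comparisons (horizontal axis) for Olfr1134, Olfr1347, Olfr266, Olfr661 and Olfr558 (points, mean of 2 arrays; bars, the values of the 2 arrays), for Gm10228 and for the median of 8 hair shaft genes. Olfr1134 and Gm10228 were below 0 in WT 30 min and KO 60 min and above 0 in the other comparisons, while Olfr266 and Olfr661 were above 0 in all 4.

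Olfr1347 was 1.08-fold in WT 30 min, 2.05-fold in WT 60 min, 1.56-fold in KO 30 min and 0.756-fold in KO 60 min. Its values, like those of the hair lists, were highest in WT 60 min and lowest in KO 60 min, and a part of hair in them was not tested. The members Olfr1033 and Olfr46 were instead highest in WT 30 min and KO 60 min: Olfr1033 was 1.77-, 0.941-, 1.12- and 1.79-fold and Olfr46 1.41-, 0.908-, 0.827- and 1.97-fold. The second probes of Olfr1033 and Olfr46 were not well above background in green on any array. Their log2 ratios were -0.07, 0.26, -0.20 and 0.07 for Olfr1033 and -0.30, -0.21, 0.42 and 0.22 for Olfr46, in the same order. For Olfr1033 the member probe lies at chr2:85862125-85862184 and the second at chr2:85882347-85882406. For Olfr46 they lie at chr7:147802630-147802689 and chr7:147796868-147796927. Whether both probes of a gene read the same transcript was not tested.

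A small group of members was higher with PACAP throughout. Olfr266 read 6.89, 6.80, 7.26 and 6.63 with vehicle and 7.22, 7.05, 7.69 and 7.12 with PACAP, and PACAP was higher in 4 of 4 comparisons. On these normexp levels the folds were 1.26, 1.19, 1.34 and 1.40, while the Feature Extraction ratios, used for the folds that follow, gave 1.57-, 1.39-, 1.57- and 2.08-fold. Olfr661 was 1.39-, 1.46-, 1.64- and 1.77-fold. Olfr1198 was 1.33-, 1.27-, 1.56- and 1.62-fold, and Olfr432 1.31-, 1.29-, 1.56- and 1.82-fold. These 4 were higher with PACAP on all 8 arrays, as were 0.661% of the 20286 probes that met the background rule. On all 8 arrays 0 members were lower, and 267 of the 20286 probes were. Olfr1198 and Olfr432 are named for this pattern after their values were seen.

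No member passed the test of the mean PACAP effect over the 4 comparisons. In limma the smallest p were those of Olfr661 (log2 difference 0.64 ± 0.10, SE, n = 4 comparisons, adjusted p = 1) and Olfr266 (0.71 ± 0.12, adjusted p = 1). At an unadjusted p below 0.05 there were 7 members, Olfr661, Olfr266, Olfr1198, Olfr786, Olfr432, Olfr1280 and Olfr780, all higher with PACAP, and 2.24% of all probes tested. At an adjusted p below 0.05, 0% of all probes were called, and the same was so for the difference of the PACAP effect between KO and WT (0%) and between 60 and 30 min (0%). For KO against WT the smallest p among members was that of a probe of Olfr456 (0.55 ± 0.26, adjusted p = 0.839), followed by Olfr432 (0.38 ± 0.20, adjusted p = 0.839), and 0 members had an unadjusted p below 0.05 (3.20% of all probes tested). For 60 against 30 min it was Olfr530 (-0.54 ± 0.20, adjusted p = 1), the one member with an unadjusted p below 0.05 (1.59% of all probes tested), followed by Olfr1307 (-0.41 ± 0.21, adjusted p = 1). With normexp correction in place of the Feature Extraction ratio, the mean log2 differences were smaller, at 0.43 for Olfr661, 0.37 for Olfr266 and 0.37 for Olfr432.

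In KO at 30 min the members shifted together. PACAP was higher in 53 of 58 members, with a median log2 ratio of 0.32. Over all probes that met the rule it was higher in 45.9%, with a median of -0.05. On both arrays of the swap it was higher in 44 of 58, against 35.4% of those probes. In the other comparisons the members' median was -0.12 (WT 30 min), -0.02 (WT 60 min) and -0.10 (KO 60 min), with 21, 26 and 17 of 58 above 0. Over all probes that met the rule the shares above 0 were 46.5%, 43.0% and 47.2%. Among the 23 probes of the other chemoreceptor families 18 were above 0 in KO 30 min, with a median of 0.27. Of the 2050 probes with a mean level under 8 and at least 33 C or T bases 55.4% were above 0, and of the 2472 at that level with 28 or fewer 37.9% were. Among the members themselves 44 of the 46 with at least 33 such bases (95.7%) and 9 of the 12 with fewer (75%) were above 0. The median was 0.32 in both sets of members. In the same comparison the median log2 ratio was -0.78 for the 9 skin genes, with 0 above 0, and -0.70 for the 6 muscle genes. It was 1.59 for the 8 hair shaft genes, with 7 above 0, and 0.29 for the 7 neutrophil genes, with 6 above 0, of which S100a8 was at 2.05 and S100a9 at 2.00. The part of these shifts in the members' ratios was not tested. This comparison is 1 pair of RNA samples.

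The dye swap gave the same direction on both arrays for 35 of 58 members in WT 30 min, 26 in WT 60 min, 47 in KO 30 min and 33 in KO 60 min. Over all probes that met the rule these shares were 73.1%, 57.3%, 79.2% and 55.1%, and for members they were 60.3%, 44.8%, 81.0% and 56.9%. The median gap between the arrays of a swap was 0.36, 0.41, 0.25 and 0.27 for members (log2), and 0.15, 0.16, 0.17 and 0.15 for all those probes. Across members the Pearson correlation of the arrays was -0.18, 0.17, 0.04 and 0.54, and across all those probes 0.40, 0.36, 0.65 and 0.19. These are correlations across probes of the same RNA, and probes are not independent replicates.

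**Figure D5:**
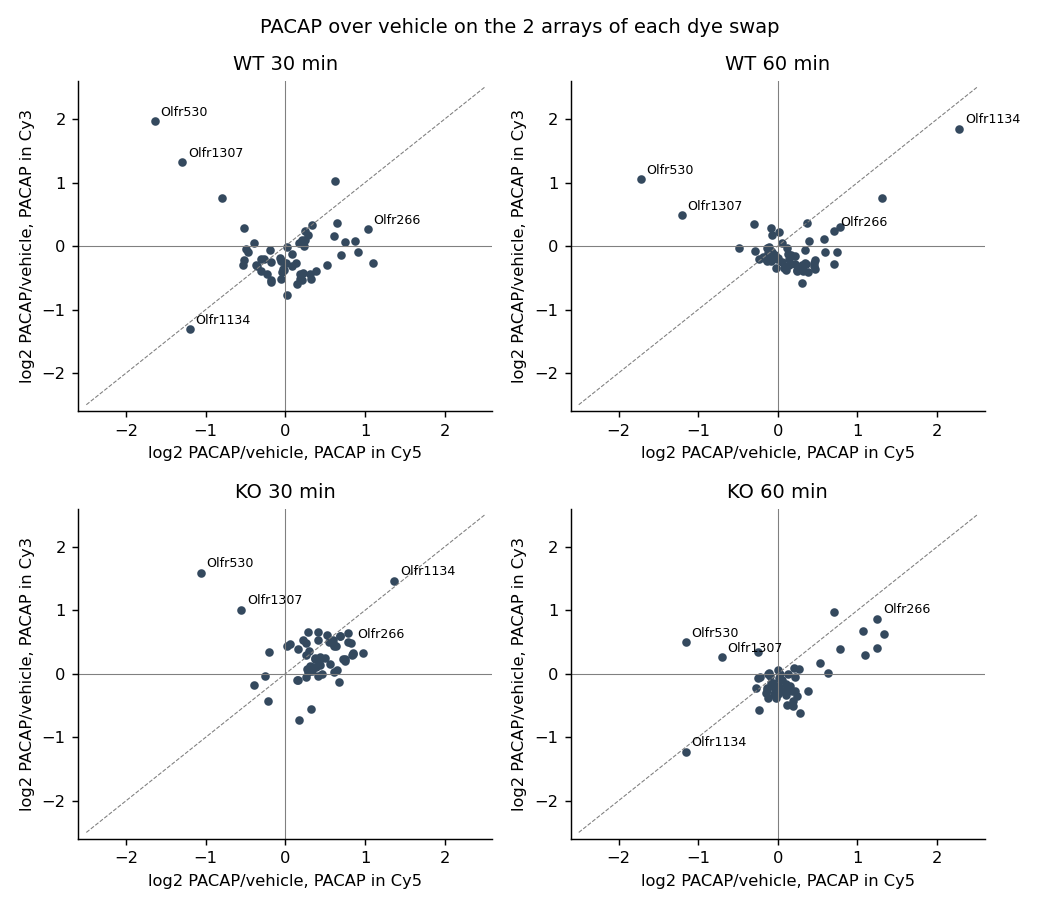
Log2 PACAP over vehicle of the 58 members on the array with PACAP in Cy5 (horizontal axis) and on the array with PACAP in Cy3 (vertical axis), 1 panel per comparison; points on the dashed line gave equal values on both arrays. Olfr1134 lies near the line in every panel, Olfr530 and Olfr1307 lie far from it at the upper left, and in KO 30 min 44 of 58 members lie above 0 on both axes.

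For 6 members, Olfr18, Olfr1368, Olfr74, Olfr1372-ps1, Olfr1307 and Olfr530, the arrays of every swap gave opposite directions, as for 6.17% of all probes that met the rule. For Olfr74 in KO 30 min the array with PACAP in Cy3 was close to 0, at -0.0083 with outlier spots left out and 0.0030 over all 10 spots. Olfr530 was brighter in green whichever RNA carried it, with a dye effect (log2 red over green, the mean of a swap) of -1.80, -1.38, -1.33 and -0.82 in the 4 comparisons. Olfr1307 had -1.31, -0.85, -0.78 and -0.48. With Olfr1122 they had the largest gaps between the arrays of a swap, at 3.60, 2.61 and 1.55 on the log2 scale. Olfr1307 is printed on 10 spots. In WT 30 min these gave PACAP over vehicle of -1.29 ± 0.27 on one array and 1.32 ± 0.26 on the other (log2, SD over 10 spots), so the spots of an array held together while the arrays opposed each other. The dye effect passed at an adjusted p below 0.05 for 29 of 58 members, 26 toward red and 3 toward green, in limma over the 4 comparisons. It passed for 42.4% of all probes tested, 25.8% toward red and 16.6% toward green. Olfr18 (0.44 ± 0.02, adjusted p = 0.00237) and Olfr469 (0.32 ± 0.02, adjusted p = 0.00273) had the smallest p, both toward red.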

How the data were processed

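Total gene expression was measured on 8 two-colour Agilent arrays, 2 per comparison with swapped dyes. Feature Extraction is given as version 12.0.3.1 in the file headers and 11.0.1.1 in the submitters' processing notes. The deposited log10 ratios are red over green after the authors' background correction and LOWESS normalization. The deposited p-value of a spot is Feature Extraction's error model and speaks of 1 array. The deposited intensity values per channel are mean, local background and processed signals, and the authors' other columns hold flags. The authors' series matrix holds log10 ratios of the processed signals and was used as an alternative.

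Control and outlier spots were left out, ratios were signed as PACAP over vehicle, converted to log2, and averaged over spots and the swap. Levels came from mean signals by normexp (offset 50), loess and Aquantile. Fits used limma 3.58.1 in R 4.3.3 with Benjamini-Hochberg adjustment over 30357 probes whose red or green flag was set on each of the arrays (30351 for the dye). Levels were fitted with genotype, time and treatment. The PACAP and vehicle samples of a comparison share arrays and were treated as independent, except where the comparison was a random block. The number of arrays limits the precision, and each effect rests on 4 comparisons. The fits of PACAP effects and of levels were tested on simulated data with 200 changed probes. At a log2 change of 3, the fit of the mean PACAP effect recovered 200, KO against WT 154 and 60 against 30 min 140. At a log2 change of 2, the level fits recovered 196 for KO against WT and 195 for 60 against 30 min. False calls numbered between 3 and 12 per fit. Recovery of smaller changes was not tested, so a fit without calls does not show that smaller changes were absent.

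Members and lists were chosen with earlier results of these data known. Named were the 12 brightest members, those past the counting rule, the 2 of smallest p in each fit and all with an adjusted p below 0.05, those at the edges of the rule, the 3 with the largest gap in a swap, and 7 receptors described outside the nose. For the dye effect the members past the threshold are given as a count. Lists of 5 liver and 7 neutrophil genes were measured too: 1 and 4 of them met the background rule.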

Additional observations from a re-analysis of the deposited data

Results flagged for a closer look

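Olfr558 was the 1 member of 58 for which every WT array gave PACAP above vehicle and every KO array gave PACAP below it. On 2 of the 4 WT arrays the log2 ratio was close to 0, at 0.0011 and 0.0096. The KO minus WT difference of its mean log2 ratio was -0.35. The difference did not pass in limma (adjusted p = 0.839, 2 comparisons per genotype). Of the 20286 probes that met the background rule, 436 (2.15%) opposed each other in the same way in either direction, so 1 of 58 is no more than that share. Genotype and slide cannot be told apart here.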

How the results depend on the processing

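The number of Olfr probes above background, 58, was 76 with both channels on at least 7 arrays, 107 above the 99th percentile of negative controls, 173 with the positive and significant flag and 416 with at least 1 channel on all 8 arrays. The counting rule gave 6 calls over the 4 comparisons, 18 on the arrays with PACAP in Cy5 alone, 10 on those with PACAP in Cy3 alone and 3 with normexp and loess and no p filter together, all of Olfr1134. Calls over all probes moved too, in WT 30 min from 100 up and 38 down to 293 and 319, to 550 and 320 and to 32 and 25. Members called for the mean PACAP effect were 0 under every alternative, including the 8 arrays as separate values with a replicate block, which gave 0. For the PACAP effect of KO against WT the count was between 0 and 1 when a comparison was left out, with the 1 without WT 30 min, where 170 of all probes were called and the spread came from the KO comparisons alone, since WT had 1 comparison that was assumed to vary like them, and 0 otherwise, and for 60 against 30 min it was 0 throughout. Members called for the level of KO against WT (20) were 32 with the processed signal at the 75th percentile, where 13.4% of all probes were higher and 3.03% lower, 16 with the comparison as a random block (2.19% of all probes higher and 2.17% lower), 0 with the vehicle samples alone and between 0 and 19 when a comparison was left out. The 19 came without KO 30 min, where 5.15% of all probes were higher and 4.71% lower. No probe of all 30357 was called in the fit of the vehicle samples or without WT 30 min or WT 60 min, nor any of 30359 without KO 60 min. For the level of 60 against 30 min (13) the members called were 18 (14.7% of all probes higher and 5.12% lower), 11 (5.71% higher and 3.65% lower), 0 and between 0 and 30. The 30 came without KO 30 min, where 18.3% of all probes were higher and 18.0% lower. With the vehicle samples alone, or without WT 30 min, WT 60 min or KO 60 min, no probe at all was called. The dye effect (29) gave 44 with normexp and loess and between 15 and 22 when a comparison was left out, and over all probes the calls went from 12872 to 16623 and to between 4798 and 8061. A fit without 1 comparison has fewer samples. The mean log2 PACAP ratio moved by less than 1 SD of the comparisons for 22 of 24 named members with normexp and loess, and for 13 with PACAP in Cy5 alone and 13 with PACAP in Cy3 alone. The mean of Olfr1134, 0.26, averages 2 rises and 2 falls, and it was -0.34 without WT 60 min, -0.13 without KO 30 min, 0.76 without WT 30 min and 0.74 without KO 60 min. Dim members limit the ratios, since 41 of 58 had a mean log2 level under 8.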
